A study of Mus musculus with 18 samples.

Results

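The aquaporins are a family of membrane channels, and 8 of their genes were described here: Aqp1, Aqp3, Aqp4, Aqp5, Aqp7, Aqp8, Aqp9 and Aqp11. They were chosen by gene name, without use of any measured value, and each matched 1 of the 27131 rows of the deposited table. RNA was compared between colon tissue of 9 libraries labelled HIF2 and 9 labelled WT, all from untreated C57BL/6 mice. HIF2 mice were labelled as overexpressing HIF2 in the colon. Their genotype was written as Hif2a LFL in the sample labels and as Hif2a LSL in the design text, and that of WT mice as Hif2a +/+. No label used here names the promoter that drives the allele or the age or sex of the mice. Libraries are named by group and replicate number, 0 to 8 in each. Whether each library is a separate mouse is not said by the labels, and p-values refer to the variation among libraries.

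Aquaporins assemble as tetramers in which every subunit holds its own pore. The classical members, among them Aqp1, Aqp4, Aqp5 and Aqp8, pass mainly water, whereas the aquaglyceroporins Aqp3, Aqp7 and Aqp9 also pass glycerol, and Aqp11 is an unorthodox member found largely on membranes inside the cell. In the colon the surface epithelium draws water back from the gut contents, following the salt that its ion channels and transporters absorb. HIF-2α, encoded by Epas1, is a hypoxia-inducible transcription factor that binds short DNA motifs with the core CGTG.

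Values were FPKM, that is, fragments scaled by transcript length and library size, so levels of different genes can be compared. Differences are HIF2 minus WT on the log2(FPKM + 1) scale, where changes at low levels appear smaller than they are. The limma test covered the 13976 genes that averaged at least 1 FPKM over the 18 libraries, and genes were called at a Benjamini-Hochberg adjusted p under 0.05. FPKM sums were between 686539 and 937505 per library, and read depth is unknown. Epas1 itself was 22.7 ± 6.36 FPKM in HIF2 and 18.8 ± 3.09 FPKM in WT (SD, n = 9 each), a difference of 0.24 (SE 0.14) that did not pass the test (limma adjusted p = 0.246). Libraries stood apart within HIF2. Replicates 6, 7 and 8 lay between -58 and -50.9 on the second principal component, against -9.18 to 26.7 for the other HIF2 libraries. In HIF2 replicates 2 and 4, Slc11a2, an intestinal iron importer gene driven by HIF-2α, was 16.5 and 18.2 FPKM, inside the WT range of 12.8 to 19 FPKM. Ddx3y, a Y-linked gene, was under 1 FPKM in HIF2 replicates 3, 6, 7 and 8 and in WT replicates 5 to 8. Results are given with and without these sets of HIF2 libraries, which were chosen after the data were seen.

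Of the members, 4 passed the filter on low values: Aqp8, Aqp4, Aqp1 and Aqp11. Both Aqp1 and Aqp4 were called lower in HIF2 by limma, and only Aqp1 by an exact rank test (Aqp4 adjusted p = 0.0632). No tested member was called higher by either test, and at an unadjusted p under 0.05 that count was also 0. Over all tested genes 11.1% were called lower and 11% higher, 22.1% in all. The median difference of the 4 tested aquaporins was -0.63, beside -0.02 over all tested genes. For no member did the HIF2 and WT libraries separate without overlap, which 1.27% of tested genes did with HIF2 below and 0.758% with HIF2 above.

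**Figure D1:**
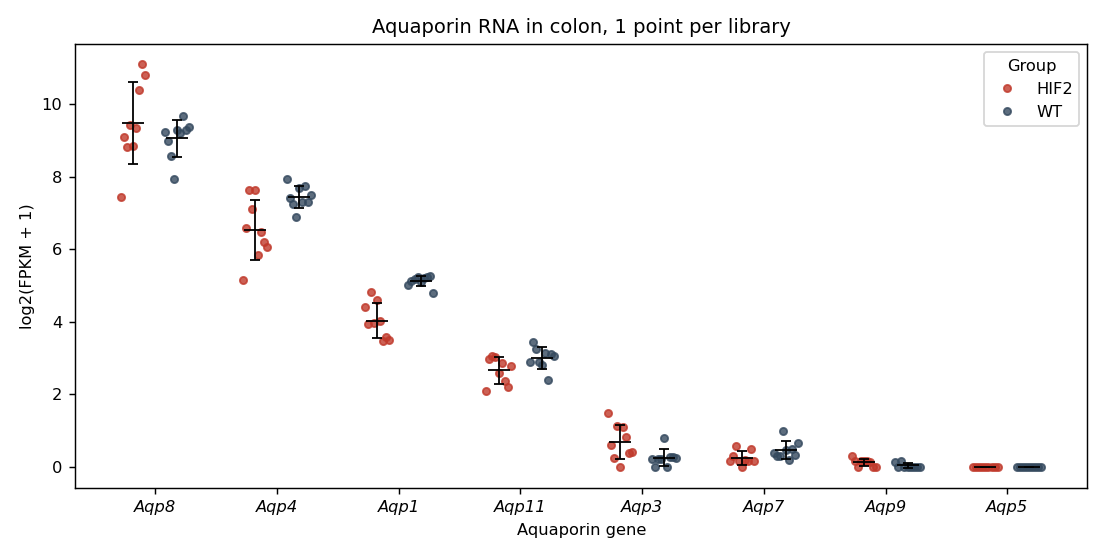
Aquaporin RNA per library on the log2(FPKM + 1) axis, with genes ordered by their mean in HIF2; points are libraries (HIF2 left, WT right of each pair), and black marks are the mean ± SD over 9 libraries. Aqp8, Aqp4, Aqp1 and Aqp11 form descending steps in both groups, the other members sit near 0, and the HIF2 points of Aqp8 and Aqp4 spread more widely than the WT points.

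The promoters of Aqp8 and Aqp1 are shown for their contrast in pattern, since Aqp8 was far above the WT range in some HIF2 libraries, and Aqp1 was low in nearly all of them. Each window runs from 250 bases before the RefSeq transcription start to 50 bases after it (RefSeq, GRCm38.p6), and capitals mark ACGTG or GCGTG on either strand, the cores of the hypoxia response element. Aqp8 is on the plus strand at chr7:123462044-123462343, and Aqp1 on the plus strand at chr6:55336049-55336348.
Aqp8: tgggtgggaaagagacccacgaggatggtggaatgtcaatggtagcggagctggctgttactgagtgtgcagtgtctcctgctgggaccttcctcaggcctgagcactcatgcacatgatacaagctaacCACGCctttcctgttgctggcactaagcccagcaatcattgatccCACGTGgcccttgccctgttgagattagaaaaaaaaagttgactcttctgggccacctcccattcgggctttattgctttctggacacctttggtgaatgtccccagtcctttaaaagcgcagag
Aqp1: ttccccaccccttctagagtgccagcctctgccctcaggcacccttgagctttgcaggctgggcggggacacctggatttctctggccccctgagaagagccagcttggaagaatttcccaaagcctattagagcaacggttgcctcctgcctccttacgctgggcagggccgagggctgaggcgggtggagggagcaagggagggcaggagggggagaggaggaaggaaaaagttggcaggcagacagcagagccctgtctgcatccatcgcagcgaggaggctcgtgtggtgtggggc

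The Aqp8 window held 2 separate matches, beginning 120 and 75 bases before the start. The nearer one is a palindrome, CACGTG, in which ACGTG reads on both strands and which is also an E box, the site of other basic helix-loop-helix factors. The Aqp1 window held no match. It ends before the start of the gene in GENCODE M21, 55336432, so bases next to that start were not searched. The Aqp8 window spans its GENCODE start, 123462291. Entries were found for 7 members (all except Aqp4), with 9 windows. Aqp11 held 4 separate matches, Aqp5 held 3, and 1 of the 2 windows of Aqp9 held 2, while Aqp1, Aqp3 and Aqp7 held none. Of 32851 windows in the table, 43.8% held ACGTG or GCGTG and 7.15% held CACGTG. Of the members with matches, Aqp8 and Aqp11 were not called, Aqp9 was under the filter on low values, and Aqp5 was listed at 0 in every library. Whether a match bears on the level of a gene was not tested.

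Aqp8, a water channel that also passes hydrogen peroxide and ammonia and lies in surface colonocytes, was the most abundant aquaporin in all 18 libraries. The gene is protein-coding and lies on the plus strand of chromosome 7, 123462291 to 123468004 (GENCODE M21, GRCm38). Its level ran from 173 FPKM through a median of 648 to 2193 FPKM in HIF2, and from 245 through a median of 604 to 808 FPKM in WT. HIF2 replicates 6, 7 and 8, at 1347, 2193 and 1788 FPKM, were all above the WT maximum, HIF2 replicate 0 was below the WT minimum, and the other 5 HIF2 libraries, at 451 to 683 FPKM, were inside the WT range. The mean was 921 ± 691 FPKM in HIF2 and 559 ± 165 FPKM in WT (SD, n = 9 each). The difference of 0.42 (SE 0.39, 95% interval -0.40 to 1.23) did not pass the test (limma adjusted p = 0.496, exact permutation p = 0.337, 2-sided). The interval allows a fold between 0.76 and 2.35, so these libraries show neither a rise nor the lack of one.

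The spread of Aqp8 was itself wide in HIF2, with an SD of 1.14 on the log2 scale, against 0.51 in WT. The median SD over all tested genes was 0.31 in HIF2 and 0.23 in WT. Without HIF2 replicates 6 to 8 the Aqp8 difference was -0.23 (limma adjusted p = 0.622), and without HIF2 replicates 0 to 5 it was 1.71 (limma adjusted p = 0.002). The direction therefore depended on which HIF2 libraries were included. In replicates 6 to 8 the smooth muscle list lay between -0.58 and 0.59 relative to the WT mean, against 3.02 to 4.18 in HIF2 replicates 0 to 5. WT replicate 3, the WT library with the lowest Aqp8 at 245 FPKM, stood at 2.84 on that list. The other WT libraries lay between -1.32 and 0.70. With the mean of that list as a covariate Aqp8 was 1.43 higher in HIF2 (SE 0.37, limma adjusted p = 0.0158). In HIF2 replicate 0, where Aqp8 was lowest, the summed level of 8 neutrophil genes was 844 FPKM, the absorptive colonocyte list lay at -1.57 and the erythroid list at 3.72 relative to WT. With sex-linked covariates Aqp8 was 0.41 higher in HIF2 and did not pass (limma adjusted p = 0.406). The part of blood and neutrophil RNA in these Aqp8 values was not tested.

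Aqp4, a water channel of the basolateral membrane of colon surface epithelium in the mouse and of astrocyte endfeet in the brain, was the next most abundant. It lies on the minus strand of chromosome 18, 15389496 to 15410982. Aqp4 was 34.1 FPKM at its lowest, 88.1 at the median and 197 at its highest in HIF2, against 117, 169 and 243 FPKM in WT. Of the 9 HIF2 libraries, 6 lay below the WT minimum, while replicates 2, 3 and 4, at 197, 137 and 197 FPKM, lay inside the WT range. The mean was 105 ± 59.5 FPKM in HIF2 and 176 ± 37.9 FPKM in WT (SD, n = 9 each). Aqp4 fell by 0.92 on the log2 scale (SE 0.28, 95% interval -1.50 to -0.34, limma adjusted p = 0.0217, exact permutation p = 0.00629), and 7 of 9 HIF2 libraries were below the WT median.

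This call was near its threshold. It was lost in an exact rank test (adjusted p = 0.0632), with the smooth muscle covariate (-1.11, limma adjusted p = 0.052), with sex-linked covariates (-0.87, limma adjusted p = 0.0623) and without HIF2 replicates 6 to 8 (-0.78, limma adjusted p = 0.0925). Without HIF2 replicates 2 and 4 the difference was -1.24 (limma adjusted p = 0.000892). It was negative under each of the alternatives run.

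Aqp1, the water channel of blood vessel endothelium, mesothelium and red cells, was lower in HIF2 in nearly all libraries. It lies on the plus strand of chromosome 6, 55336432 to 55348555. In HIF2 it ran from 9.97 through a median of 14.4 to 26.9 FPKM, against 26.6, 34.9 and 37.3 FPKM in WT. HIF2 libraries were below the WT minimum in 8 of 9 cases, and replicate 2, the highest at 26.9 FPKM, stood just above the lowest WT library. The 3 lowest were replicates 6, 7 and 8, at 9.97, 11 and 10.2 FPKM. The mean of 16.1 ± 6 FPKM in HIF2 was 47.5% of the mean of 33.9 ± 3.36 FPKM in WT (SD, n = 9 each). Aqp1 fell by 1.10 (SE 0.16, 95% interval -1.44 to -0.76, limma adjusted p = 0.00017, exact permutation p = 8.23e-05). The call was kept under all 34 alternatives, with differences between -1.61 and -0.84.

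Genes of cell types known to carry Aqp1 did not share its direction. Which cells hold Aqp1 in this colon tissue was not tested. Of 13 endothelial markers 12 were tested, and all 12 rose in HIF2, among them Egfl7 by 1.51 (limma adjusted p = 0.000447) and Kdr, a receptor for the vessel growth factor VEGF, by 0.97 (limma adjusted p = 0.00104). Their summed level was 22.9 to 134 FPKM in HIF2 and 6.2 to 28.8 FPKM in WT, and no endothelial marker was at 0 throughout. Of 7 mesothelial markers 4 were tested and 3 rose, among them Upk3b by 2.25 (limma adjusted p = 1e-07) and Msln by 1.11 (limma adjusted p = 0.00353). The mesothelial sum was 5.42 to 18.8 FPKM in HIF2 and 1.53 to 4.01 FPKM in WT. Of 8 erythroid genes 5 were tested and 4 rose, among them Beta-s by 2.30 (limma adjusted p = 0.00383) and Hba-a2 by 2.28 (limma adjusted p = 0.0102), globin genes of the beta and alpha families, each with close copies between which fragments may be split. Upk3b, Msln and Hba-a2 averaged 0.235, 0.462 and 0.646 FPKM in WT and passed the filter only through HIF2. Genes that low in WT are tested only if high in HIF2, which favours a rise. This may also hold for part of the 12 endothelial genes, since all 13 markers together summed to a median of 13.4 FPKM in WT. The endothelial, mesothelial and erythroid lists did not move alone, since 9 of 10 smooth muscle and 8 of 8 macrophage genes also rose. With the smooth muscle covariate 2 endothelial and 1 mesothelial genes rose, and 0 erythroid genes did by limma (3 at an unadjusted p under 0.05). The endothelial, mesothelial and erythroid medians were then 0.53, 0.59 and 1.53, against 1.07, 0.98 and 2.03 without the covariate. Over all tested genes 931 were called higher with it, against 1531 without. Without HIF2 replicates 0 to 5, 2 endothelial, 1 mesothelial and 2 erythroid genes rose, and Aqp1 fell by 1.61 (limma adjusted p = 2.58e-07). In bulk tissue, fewer cells of a type and less RNA per cell cannot be told apart.

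Aqp11, a channel of intracellular membranes whose loss gives kidney cysts in mice, was the lowest member to pass the filter. It lies on the minus strand of chromosome 7, 97724006 to 97738289. It ran from 3.24 through a median of 5.8 to 7.26 FPKM in HIF2, against 4.28, 7.33 and 9.88 FPKM in WT. Although each of the 9 HIF2 libraries was below the WT median, 6 were inside the WT range. The difference of -0.34 (SE 0.15, 95% interval -0.66 to -0.02) did not pass the test (limma adjusted p = 0.118, exact permutation p = 0.0457). It passed without WT replicate 6, the lowest WT library, at -0.42 (limma adjusted p = 0.0467).

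**Figure D2:**
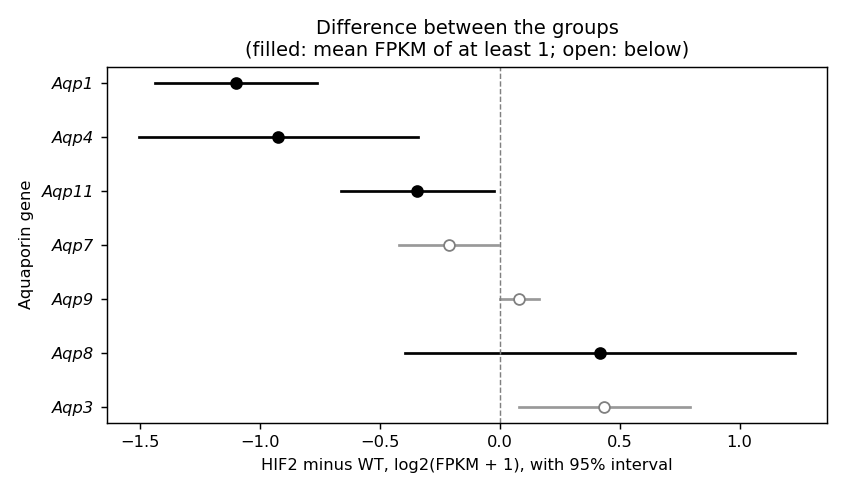
Difference between the groups, HIF2 minus WT on the log2(FPKM + 1) scale, for the 7 members above 0 in at least 1 library; bars are 95% intervals from limma, not adjusted for multiple tests. Filled points are the 4 tested members, and open points come from the fit without a filter on low values. Aqp1 at -1.10 and Aqp4 at -0.92 lie farthest below 0, and the interval of Aqp8 is the widest.

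The aquaglyceroporins and Aqp5 were at or near the lowest levels the table holds, and with a pseudocount of 1 none passed limma's test or an exact rank test after adjustment. In the fit without a filter, 17.4% of 22774 genes were called, 10.6% as higher and 6.83% as lower, and the values below come from that fit. Unadjusted, Aqp3, Aqp7 and Aqp9 had a limma p of 0.019, 0.0437 and 0.0429. At these levels the pseudocount sets the size of a difference: with 0.01 in place of 1, Aqp3 was 1.78, Aqp7 -1.34 and Aqp9 1.71, and none passed (limma adjusted p = 0.243, 0.149 and 0.155). Aqp3, a basolateral channel for water and glycerol known from rat and human colon, is on the minus strand of chromosome 4, 41092722 to 41098183. It was 0 to 1.79 FPKM (median 0.521) in HIF2 and 0 to 0.741 FPKM (median 0.165) in WT. Of the HIF2 libraries 4 were above the WT maximum, with replicates 0, 3 and 5 at 1.79, 1.15 and 1.12 FPKM. The difference was 0.44 (SE 0.17, limma adjusted p = 0.0863). Without HIF2 replicates 2 and 4 it was 0.60 and passed (limma adjusted p = 0.0166). Leaving out HIF2 replicate 4 or WT replicate 4 alone also brought it past the threshold (0.52 and 0.51, limma adjusted p = 0.0327 and 0.0478).

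Aqp7, the glycerol channel of fat cells, is on the minus strand of chromosome 4, 41033074 to 41048139. It was 0 to 0.467 FPKM (median 0.111) in HIF2 and 0.128 to 0.98 FPKM (median 0.305) in WT. The difference was -0.21 (SE 0.10, limma adjusted p = 0.154), and 6 of 9 HIF2 libraries were below the WT minimum. With quantile normalization it was -0.33 and passed (limma adjusted p = 0.0149). Of 10 adipocyte markers 8 were tested and 1 fell, Acvr1c, a receptor of the TGF-beta family, by 0.41 (limma adjusted p = 0.034). Their summed level was 19.2 to 142 FPKM in HIF2 and 18.6 to 131 FPKM in WT. Over all tested genes 11.1% were called lower. Without HIF2 replicate 0 no adipocyte gene passed limma's test (1 higher and 1 lower at an unadjusted p under 0.05), and without HIF2 replicates 6 to 8, 2 rose and 1 fell.

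Aqp9, the glycerol channel of liver cells that is also found in white blood cells, is on the minus strand of chromosome 9, 71110659 to 71168682. It was listed at 0 in 3 HIF2 libraries and 7 WT libraries and was at most 0.211 FPKM in HIF2 and 0.105 FPKM in WT. The highest value was in HIF2 replicate 0, the library with 844 FPKM of neutrophil genes. That sum had a median of 3.41 FPKM over the HIF2 libraries and was at most 3.28 FPKM in WT. In HIF2 replicate 7, next after replicate 0 in the mean of tested neutrophil genes (1.03 relative to WT), Aqp9 was listed at 0. A link of Aqp9 to neutrophil RNA was not tested. The difference was 0.08 (SE 0.04, limma adjusted p = 0.152), and without HIF2 replicates 6 to 8 it was 0.12 and passed (limma adjusted p = 0.0385). Aqp5, a channel of salivary, tear and airway glands on the plus strand of chromosome 15, 99590782 to 99594829, was listed at 0 in all 18 libraries.

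The order of levels was Aqp8, Aqp4, Aqp1 and Aqp11 in both groups, and each of these was above the next in 9 of 9 libraries of either group. The ranges of neighbours among these 4 did not overlap in WT. In HIF2 those of Aqp8 and Aqp4 overlapped, since Aqp8 in replicate 0, at 173 FPKM, was below Aqp4 in replicates 2 and 4. Lower down, Aqp3 averaged 0.682 FPKM and Aqp7 0.184 FPKM in HIF2, against 0.196 and 0.381 FPKM in WT. Their ranges overlapped in both groups, as did those of Aqp3, Aqp7 and Aqp9 with their neighbours below Aqp11, so no order is given among them.

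The summed FPKM of the family ran from 233 through a median of 727 to 2281 in HIF2, and from 406 through 820 to 1061 in WT. Aqp8 made up 66.1% to 96.2% of that sum in HIF2 (median 82.4%) and 60.4% to 76.2% in WT (median 72%). Aqp4 made up 3.18% to 28.8% in HIF2 (median 14.3%) and 18.9% to 28.8% in WT (median 23.4%). The ratio of Aqp8 to Aqp4 within a library does not depend on how libraries are scaled. It was 4.97 to 30.3 in 7 HIF2 libraries, and 2.29 and 2.34 in HIF2 replicates 2 and 4, against 2.1 to 4 in WT. All 7 of those libraries were above the WT maximum, and replicates 2 and 4 were inside the WT range. This ratio was chosen after its values were seen and is given as a description, without a test.

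**Figure D3:**
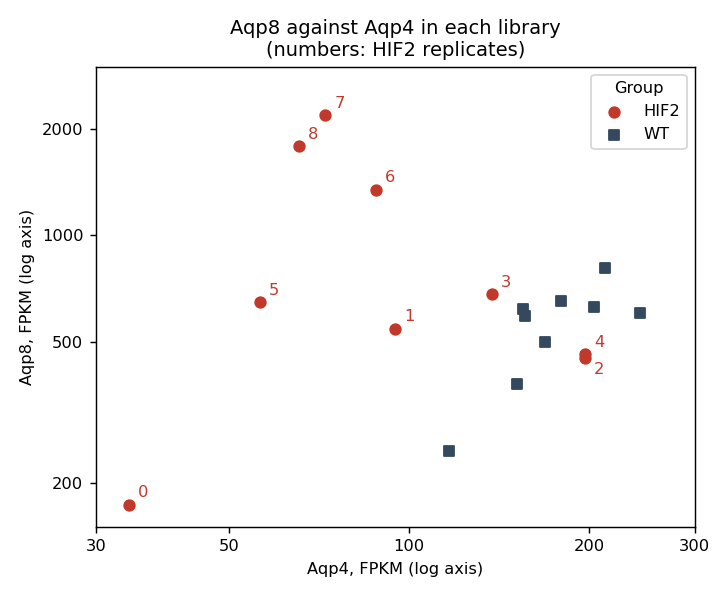
Aqp8 against Aqp4, both in FPKM on log axes, 1 point per library (HIF2 circles with replicate numbers, WT squares). The WT libraries lie in a band with Aqp8 at 2.1 to 4 times Aqp4. HIF2 replicates 2 and 4 lie in that band, the other HIF2 libraries lie to its upper left, and replicates 6, 7 and 8 have the highest Aqp8.

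HIF2 replicates 2 and 4 were also the libraries closest to WT in Aqp4 and Aqp1. Relative to the WT mean, Aqp4 stood at 0.19 in both, and at -2.31 to -0.33 in the other HIF2 libraries. Aqp1 stood at -0.32 and -0.52 in them, and at -1.67 to -0.73 in the other HIF2 libraries. The mean of 11 genes that respond to HIF stood at 0.06 and -0.02 in these libraries, against 1.32 to 2.57 in the other HIF2 libraries. Slc11a2, by which replicates 2 and 4 were first singled out, is among the 11. A low mean in them therefore follows in part from that choice. The smooth muscle list, at 4.01 and 3.78, and the endothelial list, at 1.06 and 0.96, were above the WT mean there. Which of these measures moved with the aquaporins beyond the others was not tested.

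**Figure D4:**
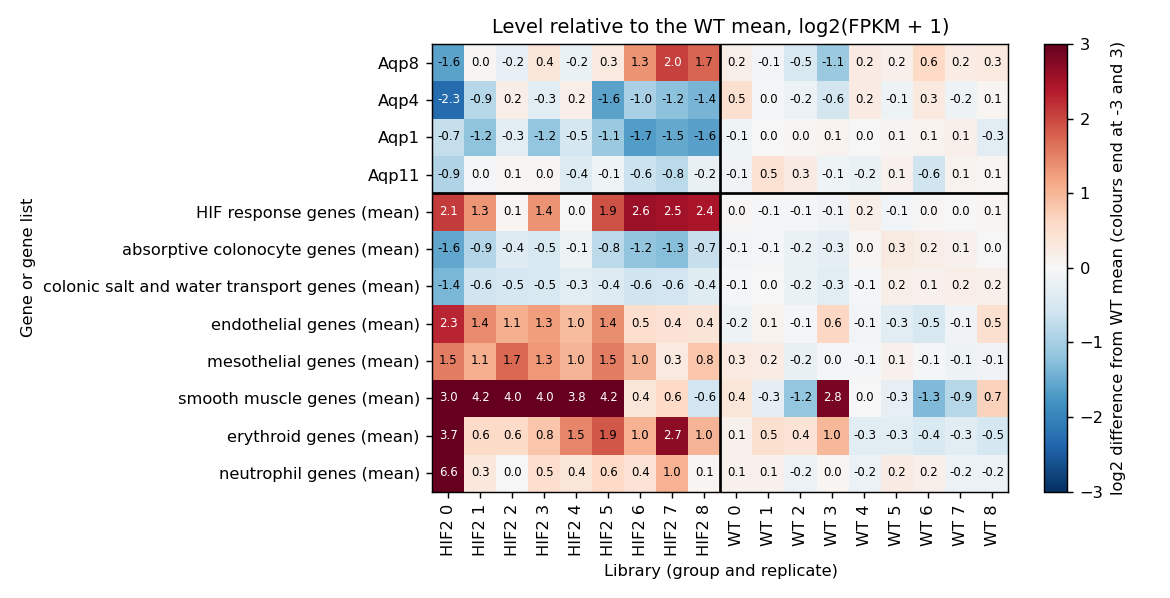
Levels in each library relative to the WT mean on the log2(FPKM + 1) scale, for the 4 tested aquaporins (upper rows) and for the mean of tested genes of each list (lower rows), HIF2 libraries left of the line and WT right. Aqp1 is below the WT mean in all 9 HIF2 libraries, Aqp4 in all of them except replicates 2 and 4, and Aqp8 is high in replicates 6 to 8, where the smooth muscle mean is between -0.58 and 0.59.

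Among genes of colonic salt and water transport, 28 were listed and tested, of which 16 fell, 1 rose and 11 did not pass. The list holds genes of salt absorption, of secretion and of their control, so its counts do not refer to absorption alone. The median difference was -0.60, beside -0.02 over all tested genes, of which 11.1% were called lower and 11% higher. Kcne3, a potassium channel subunit, fell by 1.25 to 59.5 ± 17.1 FPKM in HIF2, against 139 ± 29.7 FPKM in WT (limma adjusted p = 0.000187). Atp1b1, a sodium pump subunit, fell by 0.63 (limma adjusted p = 0.000211). The gene that rose was Atp1b3, another subunit of that pump, by 0.36 (limma adjusted p = 0.0406). Without HIF2 replicates 6 to 8, 17 fell and 2 rose, beside 1876 and 1736 of all 13976 tested genes. Without HIF2 replicates 0 to 5, 17 fell and 1 rose, beside 1343 and 1187 of all tested genes. Markers of absorptive colonocytes, the cells that carry Aqp8 and Aqp4, fell in 8 of 14 tested, with a median of -0.72, among them Slc5a8 with a change of -1.49 and Car4, a carbonic anhydrase, with -1.69 (limma adjusted p = 0.000991 and 0.00117). Their summed level was 4152 to 14653 FPKM in HIF2 and 11001 to 18463 FPKM in WT. Without HIF2 replicates 0 to 5, where Aqp8 was 1.71 higher in HIF2, 9 of these markers fell and 2 rose. Slc26a3 and Slc5a8 are on both the colonocyte list and the salt and water transport list, so the counts of these lists overlap.

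Of 14 genes of glycerol and triglyceride handling 2 rose, the lipase inhibitor gene G0s2 by 1.44 and the monoglyceride lipase gene Mgll by 0.51, and 2 fell, Gpd1 by 0.55 and the triglyceride lipase gene Pnpla2 by 0.46 (limma adjusted p = 0.0109, 0.012, 0.0051 and 0.0176). Of 7 tested genes of the response to osmotic stress, 1 fell, the taurine transporter gene Slc6a6, by 0.49 (limma adjusted p = 0.0266). Medians were -0.12 and 0.04, and 22.1% of all tested genes were called. G0s2 averaged 0.677 FPKM in WT and passed the filter only through HIF2, which favours a rise. Without HIF2 replicate 0, 2 glycerol genes rose and 4 fell, and with the smooth muscle covariate 1 rose and 1 fell. Without HIF2 replicates 0 to 5, 2 osmotic stress genes fell, and without HIF2 replicates 6 to 8 none passed limma's test (1 lower at an unadjusted p under 0.05).

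The genes most like each tested member were found by Pearson's r over the 18 libraries after the mean of each group was subtracted, and are given as a description. These genes share the libraries, and with them the differences in tissue makeup. For Aqp8 they were the carbonic anhydrase gene Car2 (r = 0.962), the alcohol dehydrogenase gene Adh1 (0.961) and Pgpep1 (0.948), none of which passed the test between groups. For Aqp4 they were the sialyltransferase gene St6gal1 (r = 0.968), Slc5a8, a butyrate transporter gene (0.954), and Acsm3, a fatty acid ligase gene (0.953). All 3 fell in HIF2, with differences of -0.90, -1.49 and -0.86 (limma adjusted p = 0.00879, 0.000991 and 0.0331). For Aqp1 the values were lower, at 0.878 for the glutamate dehydrogenase gene Glud1, 0.842 for the neuropeptide gene Nmu and 0.84 for Smoc2, a matrix protein gene of crypt base cells. Nmu rose by 1.07 and Smoc2 fell by 0.66 (limma adjusted p = 0.0468 and 0.0384), so likeness within groups did not go with one direction between them. Nmu averaged 0.254 FPKM in WT and passed the filter only through HIF2, which favours a rise. For Aqp11 they were Arhgap39 (0.836), Eif2c1 (0.794) and the intestinal homeobox gene Isx (0.783). Isx and Arhgap39 fell in HIF2, with differences of -0.87 and -0.59 (limma adjusted p = 0.00395 and 0.00526), while Eif2c1, at -0.07 (limma adjusted p = 0.695), did not pass, nor did Aqp11 itself.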

How the data were processed

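The deposited values were FPKM made by the authors, 1 column for each of 18 libraries (9 HIF2, 9 WT) and 27131 rows. Polyadenylated RNA was sequenced from TruSeq v2 libraries, per the labels' protocols. Per the submitters' processing notes, the build was mm10 and the tools included Cuffdiff 2.1.1, TopHat2 2.0.9, Bowtie2 2.1.0.0 and FastQC. No source used here gives the read depth, the strand setting or the annotation release, so counting intervals were not made.

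Tests used limma 3.58.1 in R 4.3.3 on log2(FPKM + 1) (trended prior, 2-sided, Benjamini-Hochberg over all tested genes, threshold 0.05). Members under the filter took their values from a fit without it. Exact permutation tests enumerated 48620 splits. The fit was tested on simulated data. The members, lists and alternatives were chosen with earlier results of these data known. Named genes were all members, up to 2 per list and direction by smallest adjusted p, and the 3 most alike per tested member, leaving out predicted genes. Older symbols were matched through RefSeq, and 1 listed colonocyte, goblet, erythroid and neutrophil gene each was not used here. Alternatives covered pseudocounts, filters, scalings, covariates, weights, tests and each library left out.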

Additional observations from a re-analysis of the deposited data

Results flagged for a closer look

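Aqp3 in WT replicate 4 was 0.741 FPKM, far above the other WT libraries, whose highest value was 0.192 FPKM. The gap was 0.684 of the group's range on the log2(FPKM + 1) scale, past Dixon's 95% critical value for 9 samples. Chance flags about 1 in 20 groups, and 14 groups of members were examined.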

How the results depend on the processing

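Aqp1 stayed below WT and past the threshold under all 34 alternatives, and Aqp4 stayed below WT in all 34 but lost its call in 4: an exact rank test (-0.922, unchanged by construction), the smooth muscle covariate (-1.11), sex-linked covariates (-0.865) and without HIF2 replicates 6 to 8 (-0.785). With the replicate number as a block its adjusted p was 0.0498. Aqp8 reversed to -0.229 without HIF2 replicates 6 to 8, and passed at 1.43 with the smooth muscle covariate and at 1.71 without HIF2 replicates 0 to 5. Aqp7 passed with quantile normalization (-0.328), Aqp3 without HIF2 replicates 2 and 4 (0.597) and Aqp9 without HIF2 replicates 6 to 8 (0.117). The causes were not tested. With 1 library left out at a time, Aqp8 ranged from 0.214 to 0.671, Aqp4 from -1.06 to -0.749, Aqp3 from 0.337 to 0.521 and Aqp11 from -0.417 to -0.272. Aqp5 gave no value. Genes higher in HIF2 numbered 1531, but 640 with the filter at 5 FPKM, 2407 without a filter and 931 with the smooth muscle covariate. Genes lower numbered 1557, but 1005 with that covariate. Array weights gave 2001 higher and 2252 lower. Same-numbered libraries correlated at -0.0333 to 0.112 in their deviations from group means, so the numbers were not taken to pair them, and 1 of 9 HIF2 libraries correlated best with its own number. A replicate block gave 1355 higher and 1345 lower and changed no member's call. Xist was at most 0.0835 FPKM. It entered beside Ddx3y as a sex-linked covariate of its own, so the part of each in that setting cannot be told apart. Unknown depth limits what values under 1 FPKM can show.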

Other observations

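Of the aquaporin genes outside the 8 described, Mip, Aqp2 and Aqp6 were listed at 0 in all 18 libraries. Aqp12, known from the pancreas, was at most 0.613 FPKM in HIF2 and 1.45 FPKM in WT, and was listed at 0 in 4 HIF2 and 3 WT libraries.

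Of the other lists, all 8 tested macrophage genes rose, such as C1qa by 1.75, as did 9 of 10 smooth muscle genes, 7 of 11 genes that respond to HIF, 1 of 2 skeletal muscle genes (Ckm, by 1.92) and the 1 tested gene of stratified squamous epithelium (Krt14, by 1.17). Of 8 goblet cell genes 2 rose and 3 fell, and the 1 tested gene of enteric glia did not pass. These counts are from limma at an adjusted p under 0.05, where 11% of all tested genes were called higher and 11.1% lower. Krt14, of 9 listed genes, and Ckm averaged 0.263 and 0.946 FPKM in WT and passed the filter only through HIF2. For genes that low in WT the filter favours a rise. Without HIF2 replicate 0, 1 goblet cell gene rose and 3 fell, and with the smooth muscle covariate 1 rose and 1 fell. Without HIF2 replicates 0 to 5, 5 macrophage and 10 HIF response genes rose, 1 skeletal muscle gene fell, and 0 smooth muscle genes rose by limma, also at an unadjusted p under 0.05. The median of the smooth muscle list was then 0.10, against 3.02 with all libraries. Without HIF2 replicates 2 and 4, 5 smooth muscle and 10 HIF response genes rose, and without HIF2 replicates 6 to 8, 5 HIF response genes rose. Replicates 2 and 4 were singled out by Slc11a2, a gene of the HIF response list, so the count without them follows in part from that choice.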
